A study of Homo sapiens with 6 samples.

Results

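Large H3K27ac domains are stretches of the genome where many peaks of this histone mark lie close together. They were found here in the small cell lung cancer lines H69M and H69. In each line, H3K27ac peaks on chromosomes 1 to 22 and X were joined when the gap between them was 12.5 kb or less. Domains were chosen by the summed length of these peaks, and a joined region counted as a domain at 15 kb or more. By this rule 535 of 25292 joined regions were domains in H69M (2.12%), and 267 of 20133 in H69 (1.33%). Merged over both lines they gave 601 regions, of which 194 held a domain in both lines, 335 held one in H69M only and 72 held one in H69 only. Promoters were not removed, so the regions are called domains and not enhancers.

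H69M is a derivative of H69, made as in an earlier study that the labels cite, which described a mesenchymal derivative of H69. H69 is the established line NCI-H69, from a small cell lung cancer, a neuroendocrine tumour. Each line gave 1 H3K27ac and 1 H3K27me3 library from formaldehyde-fixed chromatin, immunoprecipitated with antibody ab4729 or clone C36B1, and no drug or other treatment is named. Only lists of peaks were used, so read depth is unknown, every value stands for 1 library without replicates, and no test between the lines was possible.

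Acetylation of lysine 27 of histone H3 is placed by the acetyltransferases p300 and CBP and marks active promoters and enhancers. Clusters of such elements that span long stretches, often called super-enhancers or stretch enhancers, are known for lying near genes that set the identity of a cell type, among them lineage transcription factors and microRNAs. Trimethylation of the same lysine is the work of the Polycomb complex with the enzyme EZH2 and is found at silenced genes. The same lysine cannot carry both marks at once.

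Genes were placed on the hg19 domains from general knowledge of hg19 gene positions, rounded to 10 kb, because no hg19 annotation was at hand. Of the 163 genes placed, 163 lay on the same chromosome in the RefSeq table for GRCh38.p14, and all 136 neighbouring pairs compared stood in the same order. The placement remains approximate, and a gene at a domain is a position only. It does not show that the domain acts on the gene.

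Several of the named domains held microRNA genes, whose products repress messenger RNAs through a short seed at their 5′ end. The mature sequences of 4 of them are shown because their host domains include the longest domain of each line and a long domain found in each line alone. They are from RefSeq (GRCh38.p14), 5′ to 3′, with the seed, bases 2 to 8, in capitals.

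hsa-miR-10a-5p: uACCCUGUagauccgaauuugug

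hsa-let-7b-5p: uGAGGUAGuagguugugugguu

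hsa-miR-21-5p: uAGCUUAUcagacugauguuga

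hsa-miR-1275: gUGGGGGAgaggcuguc

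The 4 seeds differ from one another. MIR10A lies in the HOXB cluster, inside the longest domain of H69M. MIRLET7B, a member of the let-7 family of differentiation-linked microRNAs, lies inside the longest domain of H69. MIR21, a microRNA known for high levels in many carcinomas, lies in a domain of H69M alone, and MIR1275 in a domain of H69 alone. No RNA was measured, so the levels of these microRNAs are unknown here.

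Promoters of 3 protein-coding genes are shown because their domains had little or no H3K27ac in the other line. ITGA5 (integrin α5, the fibronectin receptor subunit) and TGFBI (a matrix protein induced by TGF-β) lay in H69M domains without any H69 peak. SSTR5 (a somatostatin receptor of neuroendocrine cells) lay in an H69 domain with 1 H69M peak. Each sequence runs from 250 bases before to 20 bases after the gene start and comes from RefSeq (GRCh38.p14). Capitals mark matches to the AP-1 motif TGANTCA, the TEAD motif GGAATG and the E-box CAGCTG, all searched on both strands.

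ITGA5 (chr12:54419247-54419516, minus strand): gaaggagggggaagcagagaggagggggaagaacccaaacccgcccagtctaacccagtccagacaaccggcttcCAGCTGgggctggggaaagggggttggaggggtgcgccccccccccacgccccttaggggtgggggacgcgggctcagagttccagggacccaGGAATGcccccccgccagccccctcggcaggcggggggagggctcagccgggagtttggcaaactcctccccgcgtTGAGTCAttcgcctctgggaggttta

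TGFBI (chr5:136028738-136029007, plus strand): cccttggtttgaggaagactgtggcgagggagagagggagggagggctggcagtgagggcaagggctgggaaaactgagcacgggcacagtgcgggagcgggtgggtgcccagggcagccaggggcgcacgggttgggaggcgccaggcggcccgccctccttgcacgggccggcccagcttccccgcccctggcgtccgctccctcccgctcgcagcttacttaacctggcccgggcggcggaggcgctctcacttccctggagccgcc

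SSTR5 (chr16:1078576-1078845, plus strand): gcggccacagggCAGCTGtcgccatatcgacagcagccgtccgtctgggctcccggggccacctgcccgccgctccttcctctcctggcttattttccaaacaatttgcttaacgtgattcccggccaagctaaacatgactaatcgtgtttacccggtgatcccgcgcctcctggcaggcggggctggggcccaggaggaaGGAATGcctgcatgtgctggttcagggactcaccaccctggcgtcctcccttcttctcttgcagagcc

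The ITGA5 promoter held all 3 motifs, with the AP-1 match over the gene start from base -6 to base 1, the TEAD match beginning at base -82 and the E-box at base -175. The SSTR5 promoter held the TEAD motif from base -48 and the E-box from base -238. The TGFBI promoter held none of these letters. Of 35116 promoter windows of the same length, 7.12% held the AP-1 motif, 12.9% the TEAD motif and 15.6% the E-box. These matches describe letters and not bound sites.

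Domains made up a small share of joined regions and a larger share of the mark. They held 13.1 Mb of H3K27ac in H69M, 17.02% of the 76.8 Mb that its peaks covered, and 6.64 Mb in H69, 13.8% of its 48.2 Mb. The domains were more frequent in H69M by a factor of 2.004, whereas its joined regions were more frequent by 1.26 and its peaks by 1.34.

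A typical domain was nearly as long in one line as in the other. The median summed peak length was 20.7 kb in H69M (quartiles 17.1 and 28.2 kb, longest 95.7 kb) and 20.3 kb in H69 (quartiles 17.4 and 28.2 kb, longest 95.04 kb). The domains were built differently. A domain held a median of 10 peaks in H69M and 13 in H69, and spanned a median of 46.7 kb in H69M and 51.1 kb in H69. Peaks filled a median of 46.8% of the span in H69M and 42.7% in H69. The median peak inside domains was 1.60 kb wide in H69M and 1.17 kb in H69, against 1.11 kb and 0.952 kb outside them. A single peak of 10 kb or more stood in 73 H69M domains and in 18 H69 domains. H69M domains thus consisted of fewer and wider peaks. Wider peaks can come from deeper or better enriched libraries, and their part in this difference was not tested.

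A pair of extremes shows the range of this architecture. In H69M a domain at chromosome 12, 31371456 to 31392440, was a single peak of 20.985 kb, while the domain at MAML3, a coactivator of Notch signalling, was built of 39 peaks over a span of 193 kb. No H69 domain was a single peak. Its most fragmented domain, at CUEDC1 on chromosome 17, had 46 peaks.

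Short domains were the most common. Between 15 and 20 kb lay 250 domains of H69M and 125 of H69, and 50 kb or more was reached by 22 in H69M and 13 in H69. The values around the minimum ran on without a gap. The shortest domain measured 15.002 kb in H69M and 15.003 kb in H69, and the longest joined region below the minimum 14.981 kb in H69M and 14.995 kb in H69. Regions of 14 to 15 kb numbered 75 in H69M and 40 in H69, beside domains of 15 to 16 kb that numbered 71 in H69M and 33 in H69.

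**Figure D1:**
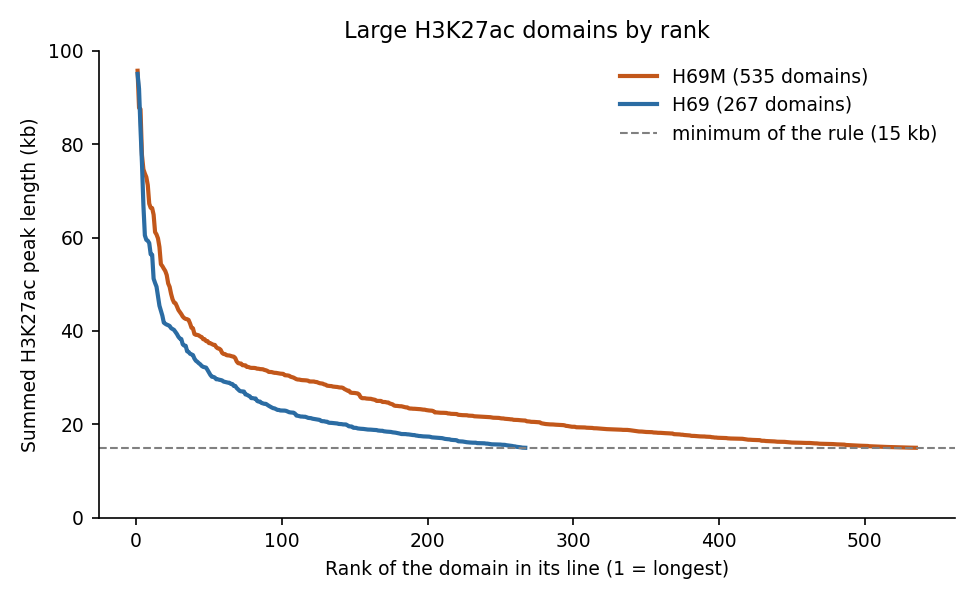
Summed H3K27ac peak length of each domain (kb, vertical axis) by its rank within its line (horizontal axis), for 535 domains of H69M and 267 of H69, with the 15 kb minimum as a dashed line. Both curves start near 95 kb and flatten towards the minimum, and the H69M curve runs on to rank 535.

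Domains were spread over all 23 chromosomes in both lines and unevenly among them. Chromosome 17 held the most, 66 in H69M and 31 in H69, and domains took up 33.04% of its H3K27ac in H69M and 23.8% in H69. Chromosome 1 followed with 58 domains in H69M and 26 in H69. On chromosome 17, 12.3% of the H69M domains stood beside 5.25% of the H69M peaks. Domains also lay near one another. Another domain was within 200 kb of 206 H69M domains (38.5%) and of 92 H69 domains (34.5%).

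Relative to H69, the surplus of H69M was largest on chromosomes 4, 8 and 3. Chromosome 4 had 8 domains in H69M and 1 in H69, chromosome 8 had 20 in H69M and 4 in H69, and chromosome 3 had 18 in H69M and 5 in H69. Chromosome 6 had 20 in H69M and 15 in H69, chromosome 9 had 22 in H69M and 17 in H69, and the X chromosome had 4 in H69M and 3 in H69. Copy number of the chromosomes was not measured, and its part in these numbers was not tested.

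**Figure D2:**
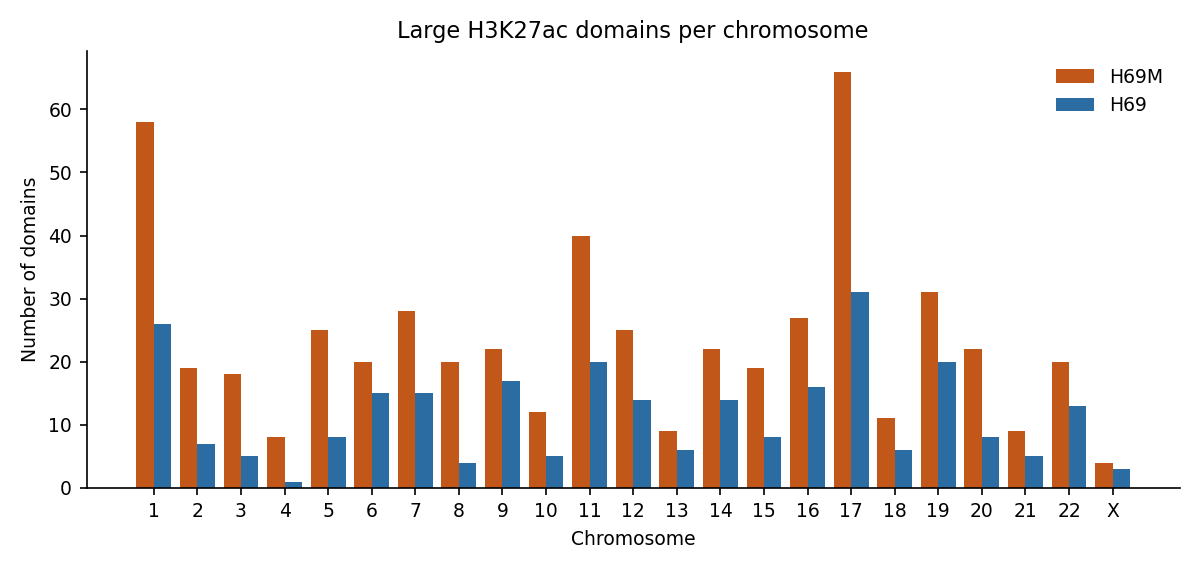
Number of large H3K27ac domains (vertical axis) on each chromosome (horizontal axis), with H69M bars left of H69 bars. Each bar is a count from 1 library. H69M bars are the taller ones on every chromosome, with 66 against 31 on chromosome 17 and 4 against 3 on X.

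The overlap of the domain sets was asked next, to see how far the lines used the same large domains. Of the H69M domains, 200 overlapped an H69 domain by at least 1 bp (37.4%, exact 95% interval 33.3 to 41.6), and 335 did not. Of the H69 domains, 195 overlapped an H69M domain (73.03%, 67.3 to 78.3), and 72 did not. The intervals cover counting error only and treat domains as independent. Over all joined regions, with no minimum length, 34.4% of the H69M regions and 15.6% of the H69 regions had no overlapping joined region in the other line. Of the 335 H69M domains without an H69 domain, 11 held no H69 peak, and all 72 H69 domains without an H69M domain held an H69M peak. Domains in one line alone were thus mostly regions that also held H3K27ac in the other line at a shorter length. In 3 of the 72 the H69M length was at least as long.

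The longest domains were mainly common to both lines. Of the 20 longest, 19 in H69M and 17 in H69 overlapped a domain of the other line, and of the 100 longest, 72 in H69M and 87 in H69 did. Of the 20 longest of H69M, 9 overlapped one of the 20 longest of H69. Length itself differed between the classes. Shared domains had a median of 27.3 kb in H69M and 21.8 kb in H69, whereas those in one line alone had 18.8 kb in H69M and 17.9 kb in H69.

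**Figure D3:**
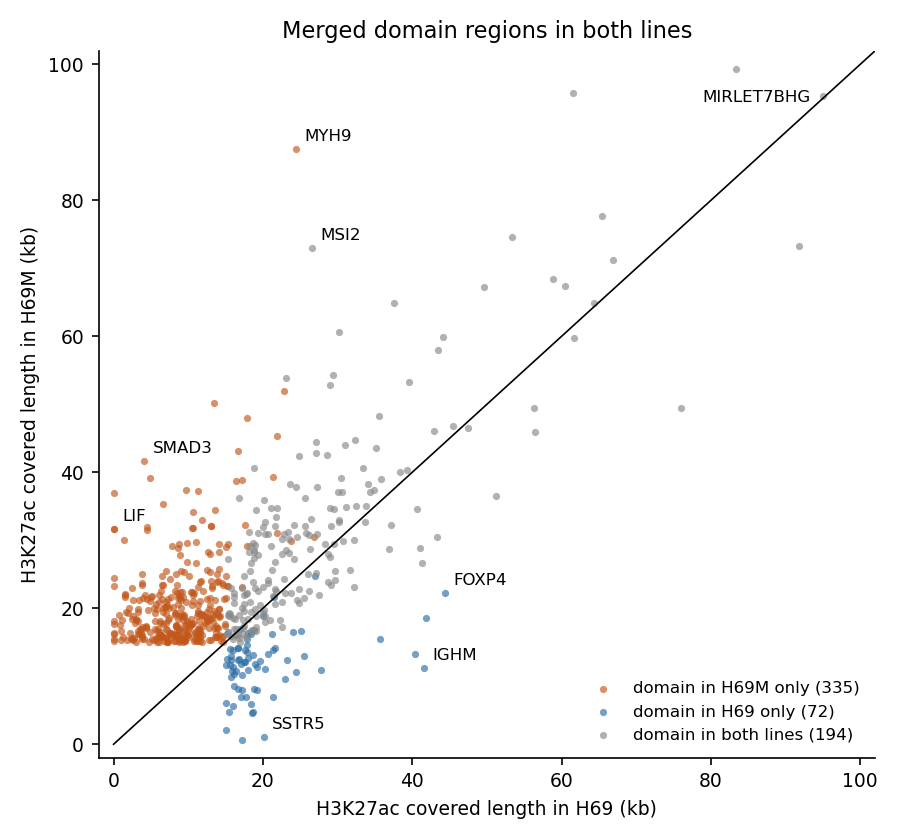
H3K27ac covered length in H69M (vertical axis, kb) against that in H69 (horizontal axis, kb) for the 601 merged domain regions, with the line of equal length. Colours give domains in H69M only (335), in H69 only (72) and in both lines (194), and MYH9 stands far above the line with 87.5 kb in H69M and 24.4 kb in H69.

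Across the 601 merged regions H3K27ac was longer in H69M in 475 (79.03%, beside 76.9% of all joined regions merged over both lines) and longer in H69 in 126. The share was thus close to that of joined regions at large. It was at least 2-fold longer in H69M in 204 (33.9%, against a background of 42.5%) and at least 2-fold longer in H69 in 23 (3.83%, against a background of 12.6%). The merged regions summed to 14.1 Mb in H69M and 9.83 Mb in H69, a ratio of 1.44, and the rest of the H3K27ac to 62.7 Mb in H69M and 38.3 Mb in H69, a ratio of 1.63. Since length chose the domains, these values describe them and support no claim about them.

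In the 194 regions with a domain in both lines the mark was of similar extent. The rule itself favours this, because it required 15 kb or more in each line. The 194 regions summed to 6.26 Mb in H69M and 5.39 Mb in H69. Their median ratio of H69M over H69 was 1.14, with a range of 0.647 to 2.75. In 161 of them the lines were within 1.5-fold of each other. H69M had fewer peaks than H69 in 156 of the 194 and more in 25, and its peaks in these regions averaged 2.66 kb in width, against 1.79 kb in H69.

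The longest domains shared by both lines lay at homeobox, epithelial and microRNA genes. The HOXB cluster, a row of homeobox genes that pattern the body axis, together with MIR10A lay in the longest domain of H69M, at chromosome 17, 46549418 to 46704777. H3K27ac covered 95.7 kb of it in 24 peaks in H69M and 61.6 kb in 36 peaks in H69.

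CUEDC1, at chromosome 17, 55926380 to 56039000, had 87.8 kb in 19 peaks in H69M and 75.3 kb in 37 peaks in H69. VAV2, a guanine nucleotide exchange factor of cell signalling, had 74.6 kb in H69M and 53.4 kb in H69 on chromosome 9. These regions were covered over more length in H69M while being cut into fewer peaks than in H69.

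The host gene of let-7b, MIRLET7BHG on chromosome 22, lay in the longest domain of H69, 46390288 to 46518057, which was covered over 95.4 kb in H69M and 95.04 kb in H69. ELF3, an epithelial ETS transcription factor on chromosome 1, had 71.2 kb in H69M and 66.9 kb in H69 across 201976808 to 202092442. These pairs lay close to each other, and the order of both turned when the lists were brought to equal numbers of peaks, with 94.0 kb in H69M and 95.04 kb in H69 at MIRLET7BHG and 66.7 kb in H69M and 66.9 kb in H69 at ELF3. LGR6, a receptor for R-spondins, had 67.3 kb in H69M and 58.8 kb in H69. The keratin genes KRT80 and KRT7 shared a region with 67.3 kb in H69M and 49.6 kb in H69. ZIC2 and ZIC5, zinc finger genes of neural development on chromosome 13, had 67.4 kb in H69M and 60.5 kb in H69.

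Among the regions with a domain in both lines, MSI2 had the largest surplus of H69M. This gene for an RNA-binding protein of stem cells lies at chromosome 17, 55582026 to 55690412, where H3K27ac covered 72.9 kb in H69M and 26.5 kb in H69. TSHZ1, a zinc finger gene on chromosome 18, had 53.9 kb in H69M and 23.1 kb in H69. In both places H69 kept a similar number of peaks, 24 at MSI2 beside 22 in H69M and 21 at TSHZ1 beside 25, so that the surplus of H69M lay in the width of its peaks.

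Other shared domains were longer in H69. SIK1, a salt-inducible kinase on chromosome 21, had 49.5 kb in H69M and 75.99 kb in H69 across 44731107 to 44883672. FUT3, a fucosyltransferase of the Lewis blood group antigens, and NDUFA11 on chromosome 19 lay in a domain with 73.2 kb in H69M and 91.8 kb in H69. NFAM1 on chromosome 22 had 45.4 kb in H69M and 56.4 kb in H69. NFIX, a nuclear factor I gene, and CALR, the chaperone calreticulin, shared a region with 57.8 kb in H69M and 59.5 kb in H69. At SIK1 and FUT3 the surplus of H69 stood although its list covered less of the genome in all.

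The 335 domains of H69M alone were seldom bare in H69. H69 peaks covered a median of 8.96 kb of them (quartiles 5.91 and 11.9 kb), 10 kb or more in 136 and less than 5 kb in 71. In 199 the H69 length was under 0.5 of the H69M length, and 11 held no H69 peak. Summed over them, H3K27ac was 2.34 times as long in H69M as in H69, and 30 of them were 30 kb or longer in H69M.

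The longest of them lay at MYH9, which encodes the heavy chain of non-muscle myosin IIA, a motor of cell contraction and migration. Across chromosome 22, 36719642 to 36879054, H3K27ac covered 87.5 kb in 37 peaks in H69M and 24.4 kb in 17 peaks in H69. The H69 length exceeded 15 kb, but its peaks fell into shorter joined regions, of which the longest at the gene had 7.35 kb. This was the largest surplus of H69M among all 601 merged regions.

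SMAD3, a transcription factor that carries TGF-β signals to the nucleus, stood out by its contrast. Its domain at chromosome 15, 67356999 to 67444179, had 41.6 kb in 20 peaks in H69M and 4.13 kb in 3 peaks in H69, a ratio of 10.1. A domain on chromosome 21, 46707339 to 46789232, where no gene was placed, had 39.2 kb in H69M and 4.90 kb in H69. It was also the only one of the 10 longest H69M domains of this class with H3K27me3 peaks inside, 4.61 kb in H69M and 3.10 kb in H69.

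The other long domains of this class kept part of the mark in H69. CXXC5, a zinc finger gene linked to Wnt and BMP signalling, had 51.98 kb in H69M and 22.8 kb in H69. MAML3 had 47.9 kb in H69M and 17.9 kb in H69. BTBD9 on chromosome 6 had 50.2 kb in H69M and 13.5 kb in H69. ATP9A, a phospholipid flippase of endosomes, had 43.1 kb in H69M and 16.7 kb in H69. MTCL1, a microtubule crosslinking factor, had 39.4 kb in H69M and 21.4 kb in H69. H69 thus had between 13.5 and 22.8 kb at these 5 loci, split into joined regions below the minimum.

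At VMP1 and MIR21 on chromosome 17, 57860028 to 57932922, H3K27ac covered 37.2 kb in H69M and 11.3 kb in H69. These genes, and those of the next 3 sentences, were chosen after their values were seen. ACTN4 (α-actinin 4, an actin crosslinker) lay in a domain with 31.8 kb in H69M and 10.7 kb in H69. GNG12, a G protein γ subunit, lay in one with 34.2 kb in H69M and 10.6 kb in H69. BNC2, a zinc finger gene known from fibroblasts and skin, had 31.9 kb in H69M and 4.47 kb in H69.

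A gene was placed at 8 of the 11 H69M domains without any H69 peak. TMEM163, a zinc transporter gene on chromosome 2, lay in the longest, 135265883 to 135335426, with 37.02 kb in only 5 peaks. TGFBI had 31.7 kb in 16 peaks at chromosome 5, 135331465 to 135395757. LIF, a cytokine of the interleukin-6 family, had 31.6 kb in 10 peaks at chromosome 22, 30590423 to 30650897. These 3 were also among the 10 largest surpluses of H69M.

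LOXL2, a lysyl oxidase that crosslinks collagen, lay in a domain of 24.5 kb on chromosome 8. F2RL1, a protease-activated receptor, lay in one of 23.3 kb, and ME3, a mitochondrial malic enzyme, in one of 18.2 kb. MYOF (myoferlin, a membrane repair protein) and ITGA5 had 16.3 kb each in H69M, the ITGA5 domain in 4 peaks at chromosome 12, 54805378 to 54827348. Next to it, at 54718010 to 54788351, lay a separate region with a domain in both lines. H3K27ac covered 22.2 kb of it in H69M and 23.8 kb in H69. This region also lay within 10 kb of ITGA5, so the difference at the gene was local. The remaining 3 of the 11, at 27852521 on chromosome 22, 33890589 on chromosome 20 and 43032457 on chromosome 21, had 17.7, 15.5 and 15.2 kb in H69M and no gene placed. With equal numbers of peaks in both lists these 3 and MYOF, with 14.6 kb left, were no longer domains. H69 had H3K27me3 peaks in 5 of these 11 domains, 1.58 kb at TGFBI, 1.70 kb at LIF, 0.513 kb at ITGA5, 0.269 kb at the chromosome 22 region and 0.170 kb at the chromosome 21 region. H69M had 0.413 kb at TGFBI, 0.543 kb at LIF, 0.493 kb at ITGA5 and 0.129 kb at the chromosome 21 region.

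**Figure D4:**
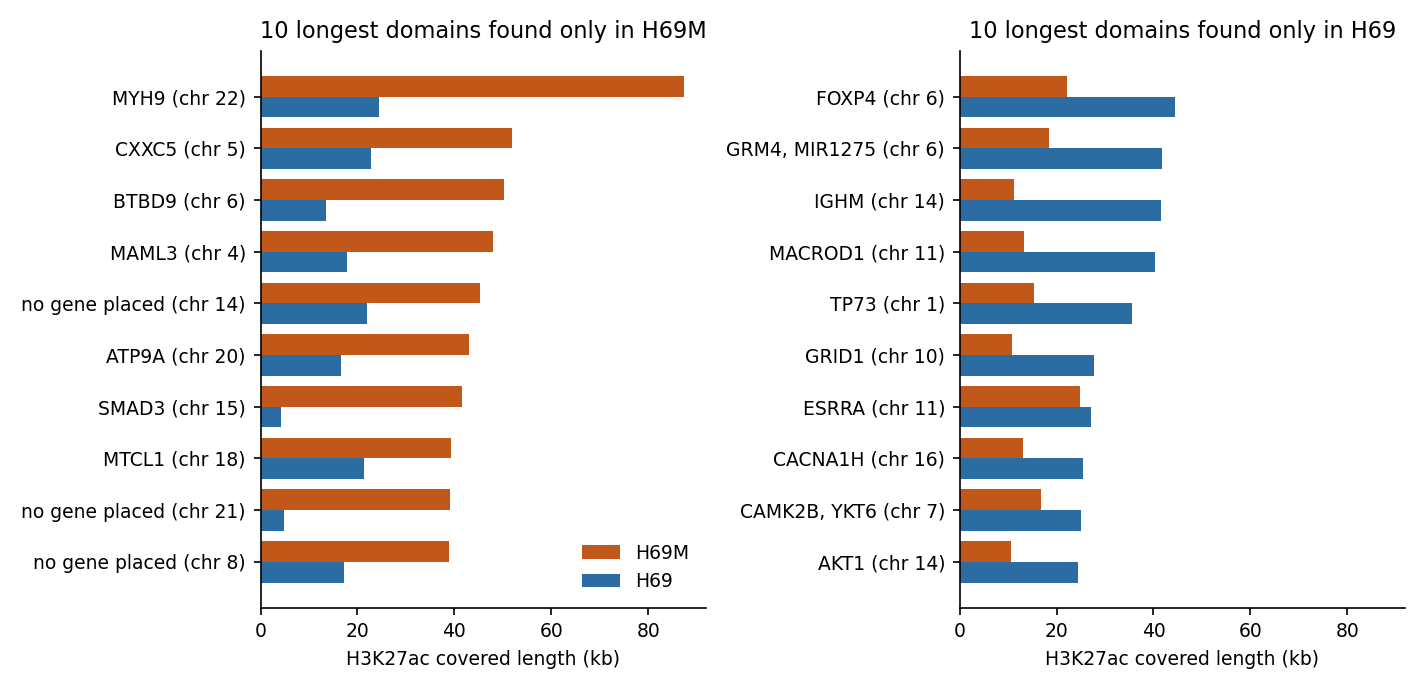
H3K27ac covered length (horizontal axis, kb) of the 10 longest domains found only in H69M (left panel) and only in H69 (right panel), each row a domain with its gene where one was placed, the H69M bar above the H69 bar. Each bar is 1 library. The other line keeps a visible bar in all 20 rows, the shortest being 4.13 kb of H69 at SMAD3.

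The 72 domains of H69 alone were all partly covered in H69M. H69M peaks covered a median of 12.2 kb of them (quartiles 9.81 and 14.1 kb), 10 kb or more in 53 and less than 5 kb in 6. In 23 the H69M length was under 0.5 of the H69 length, and in 3 it was at least as long. They summed to 0.856 Mb in H69M and 1.44 Mb in H69, and 5 of them were 30 kb or longer in H69.

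The longest lay at FOXP4, a forkhead transcription factor of lung and neural development. H3K27ac covered 22.2 kb in 16 peaks in H69M and 44.3 kb in 31 peaks in H69 across chromosome 6, 41455648 to 41571384. GRM4, a metabotropic glutamate receptor, and MIR1275 lay at chromosome 6, 33917373 to 34001602, with 18.5 kb in H69M and 41.8 kb in H69. IGHM, the constant region of the immunoglobulin μ heavy chain, had the largest surplus of H69 of all merged regions, 11.1 kb in H69M and 41.6 kb in H69 across chromosome 14, 106305246 to 106381521. MACROD1 on chromosome 11, which removes ADP-ribose from proteins, had 13.2 kb in H69M and 40.4 kb in H69. TP73, a p53 family gene, had 15.4 kb in H69M and 35.7 kb in H69 on chromosome 1. At all 5 loci H69M kept between 11.1 and 22.2 kb.

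The next 5 in length had a smaller surplus of H69. GRID1, a glutamate receptor of the delta type, had 10.9 kb in H69M and 27.8 kb in H69. CACNA1H, a T-type calcium channel, had 12.97 kb in H69M and 25.5 kb in H69 on chromosome 16. CAMK2B, a calcium/calmodulin-dependent kinase of neurons, shared its domain with YKT6, with 16.7 kb in H69M and 25.03 kb in H69. AKT1, a kinase of growth signalling, had 10.6 kb in H69M and 24.4 kb in H69. ESRRA, an orphan nuclear receptor of energy metabolism, differed little, with 24.8 kb in H69M and 27.03 kb in H69. No count over all genes stands behind these names, so no theme is drawn from them.

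A pair of regions had almost no H69M mark. SSTR5 lay at chromosome 16, 1118490 to 1176115, with 1.07 kb in 1 peak in H69M and 20.1 kb in 17 peaks in H69. H3K27me3 covered 3.37 kb of the same region in H69M and 0.135 kb in H69. A region at chromosome 14, 104809947 to 104858229, had 0.674 kb of H3K27ac in H69M and 17.2 kb in H69, with 0.214 kb of H3K27me3 in H69M and no H3K27me3 peak in H69. At SSTR5 the marks differed in opposite directions. At the chromosome 14 region only 2 H3K27me3 peaks, both in H69M, were listed, too few to read a direction from. ZBTB7C on chromosome 18, chosen after its values were seen, lay at an H69 domain, 45840757 to 45903829, with 4.74 kb of H3K27ac in H69M and 18.6 kb in H69. Neither line had an H3K27me3 peak inside that domain. At the gene but outside the domain, H3K27me3 covered 3.92 kb in 17 peaks in H69M, and H69 had no peak.

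Domains of H69 alone lay near chromosome ends more often than those of H69M alone. Within 5 Mb of the outermost peaks of a chromosome were 31 of the 335 H69M domains (9.25%, exact 95% interval 6.37 to 12.9) and 25 of the 72 H69 domains (34.7%, 23.9 to 46.9). Shared domains lay between these, with 42 of 200 in H69M and 41 of 195 in H69, and so did H3K27ac as a whole, with 11.8% of the covered length in H69M and 15.2% in H69. TP73, CACNA1H, SSTR5, IGHM and AKT1 belong to this group in H69. The intervals treat domains as independent, although neighbours such as SSTR5 and CACNA1H are not.

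H3K27me3 was not used to find the domains, and was sparse inside them. It covered 17.3 kb in 29 H69M domains (5.42%, against 3.3% of all H69M joined regions with a peak of this mark) and 9.03 kb in 12 H69 domains (4.49%, against a background of 1.81%). Domains are longer than other joined regions, which gives them more room for a peak. Per kb of span the H69M mark covered 0.615 bp in H69M domains, against 3.03 bp in the other joined regions of H69M and 2.70 bp over whole chromosomes. The H69 mark covered 0.585 bp in H69 domains, against 1.49 bp in its other joined regions and 1.66 bp over whole chromosomes.

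The balance of H3K27me3 between the lines differed between domain classes. Inside the 335 domains of H69M alone, H3K27me3 covered 9.46 kb in H69M and 15.2 kb in H69, a ratio of 0.624. Inside the 72 domains of H69 alone, it covered 11.6 kb in H69M and 3.97 kb in H69, a ratio of 2.91. Over whole chromosomes the H69M list covered 1.62 times the length of the H69 list. Each line thus had less of the silencing mark, relative to that ratio, in the domains that it alone held. For H69 a ratio above 1.62 was not particular to domains. The ratio was 2.61 in its other joined regions and 3.04 in those of 7.5 to 15 kb. The 0.624 of H69M lay below 1.28 and 1.22 in the same kinds of H69M region, which were themselves below 1.62. These shorter regions were taken whether or not the other line shared them, so they are not matched to domains of one line alone. The SSTR5 region alone held 3.37 kb of the 11.6 kb.

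Shorter regions were set beside all domains of a line, whether or not the other line shared them. The H3K27me3 ratio of H69M over H69 was 0.832 in the 535 H69M domains, 1.28 in the other joined regions of H69M and 1.22 in those of 7.5 to 15 kb. The H69M domains lay below these shorter regions, and within them the 200 shared domains had a ratio of 1.38. The ratio was 2.19 in the 267 H69 domains, 2.61 in the other joined regions of H69 and 3.04 in those of 7.5 to 15 kb. The H69 domains also lay below the shorter regions, so domains of both lines stood on the same side, and no test of these ratios was possible. Few domains carry these values. H3K27me3 peaks lay in 16 in H69M and 23 in H69 of the 335, and in 14 in H69M and 4 in H69 of the 72.

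The lineage genes of small cell lung cancer were read from 7 lists of 87 genes, each gene with the longest joined region within 10 kb in each line, which need not be the same stretch in both. Of the 87 genes, 9 lay at a domain in H69M and 4 in H69, and those 4 lay at one in both lines. The median joined region was 4.94 kb in H69M and 2.36 kb in H69, beside 1.83 kb and 1.49 kb over all joined regions. These measures differ, since each gene gave only its longest region nearby, which raises the length at any gene. H69M had the longer region at 72 genes and H69 at 11, a share near the 76.9% of all merged joined regions that were longer in H69M. Most of these genes were thus marked in both lines by regions shorter than a domain.

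Neuroendocrine transcription factors had the longest regions of the 7 lists, with a median of 11.2 kb in H69M and 6.19 kb in H69, and 3 of 16 at a domain in H69M and 2 in H69. SOX2, a stem cell and neural factor, had 31.0 kb in H69M and 17.1 kb in H69. FOXA2, a forkhead pioneer factor of the lung endoderm, had 29.2 kb in H69M and 21.1 kb in H69. FOXA1 had 15.8 kb in H69M and 13.7 kb in H69. INSM1, a zinc finger factor of endocrine differentiation, stayed below the minimum with 14.006 kb in H69M and 12.2 kb in H69. H69M, the line described as mesenchymal, had the longer region at 13 of the 16 genes and H69 at 2, which is near the share over all 87 genes and over all joined regions. Of the 12 neuroendocrine marker genes only NCAM1, an adhesion molecule, was at a domain. It had 15.002 kb in H69M, at the edge of the minimum, and 6.70 kb in H69. H69M had the longer region at 8 of the 12 and H69 at 3. Those 3 were CHGA, with 6.32 kb in H69M and 8.97 kb in H69, DLL3 (5.41 and 6.42 kb) and GRP (3.06 and 3.57 kb).

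None of the 14 genes of the mesenchymal and adhesion list or the 12 of the YAP and Notch list lay at a domain in either line. MAML3 and LOXL2, which lay at a domain in H69M, are outside the lists and were placed after values were seen. ITGA5, also outside the lists, had a domain within 10 kb in both lines. Of the 14 mesenchymal and adhesion genes 0 had no H3K27ac peak in H69M and 4 had none in H69, beside 6 in H69M and 15 in H69 of all 87 list genes, and the median was 5.66 kb in H69M and 1.53 kb in H69. SPARC, a matrix protein, had 13.8 kb in H69M and VIM, the intermediate filament vimentin, 11.3 kb. CAV1, of caveolae, had 10.8 kb and FN1 2.98 kb. These 4 had no peak in H69. H69M had the longer region at 13 of the 14 genes, beside 72 of all 87 list genes. The lines were close at TWIST1 (6.13 kb in H69M, 5.42 kb in H69), CDH2 (3.99 and 3.41 kb) and TGFBR2 (1.47 and 1.23 kb). SNAI2 was longer in H69, with 4.71 kb in H69M and 4.80 kb in H69. Of the 12 YAP, Notch and other non-neuroendocrine genes, 5 had no peak in H69, among them YAP1, a coactivator of the Hippo pathway, with 3.17 kb in H69M. REST, a repressor of neuronal genes, had 1.66 kb in H69M and no peak in H69.

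Among the AP-1 genes, FOSL1 had 20.6 kb in H69M and 3.52 kb in H69, and FOSB had 20.4 kb in H69M and 8.13 kb in H69. Both lay at a domain in H69M only. JUNB was at a domain in both lines, with 27.6 kb in H69M and 28.9 kb in H69. In all, 3 of 11 AP-1 and RUNX genes were at a domain in H69M and 1 in H69, beside 9 and 4 of all 87 list genes. The share over all annotated genes was not available here. Of 8 epithelial genes 1, the tight junction gene CLDN4, was at a domain in both lines, with 25.5 kb in H69M and 18.3 kb in H69. Of 14 interferon and antigen presentation genes 1, STING1, the adaptor of cytosolic DNA sensing, was at a domain in H69M, with 15.3 kb in H69M and 5.42 kb in H69.

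**Figure D5:**
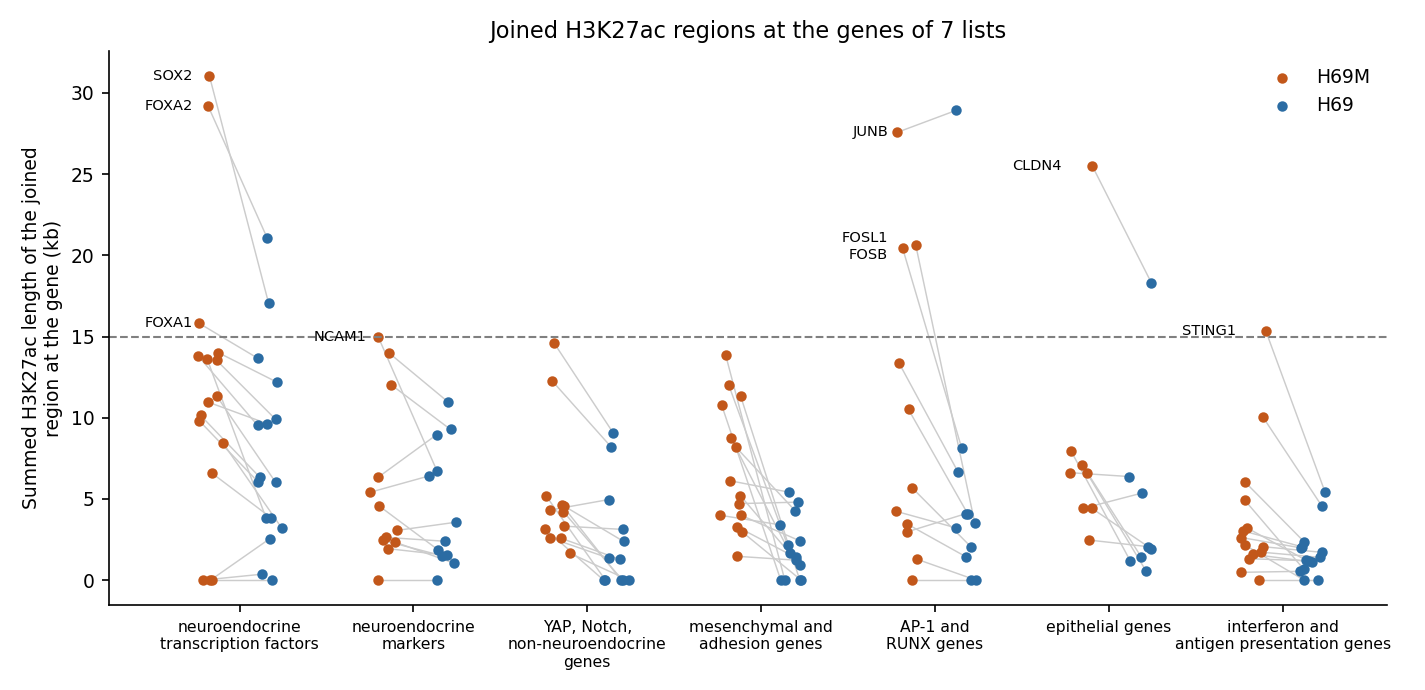
Summed H3K27ac length (kb, vertical axis) of the longest joined region at each of 87 genes in 7 lists (horizontal axis), H69M points left of H69 points and joined per gene, with the 15 kb minimum dashed. Points at 0 have no region. Of the labelled genes above the line in H69M, JUNB is the one with a longer region in H69.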

How the data were processed

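Chromatin from 2 cell lines was profiled for H3K27ac and H3K27me3, 1 library each. The inputs, 2 in number, are not used here. Reads were aligned with Bowtie2 to hg19 and handled with SAMtools 0.1.19, per the submitters' processing notes. The peak names in the deposited lists carry the word MACS. Its version, its settings and its use of input are each not given in the sources used here. The deposited lists give each peak a position and a score whose definition is not given, with a ceiling of 3100, and the authors' score was used only to filter and rank peaks. The lists hold no read counts, so depth is unknown, no precision from depth can be given, and a deeper library gives more and wider peaks.

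Peaks were joined and compared in Python 3.11.15 (pandas 2.3.3, NumPy 2.4.6), with exact (Clopper-Pearson) 95% intervals from SciPy 1.17.1. The joining step recovered 2000 of 2000 regions planted in simulated lists. Starts were made 1-based. With 1 library per group, no test between lines was run. The domains, the gene lists and the comparisons were chosen with earlier results of these data known. Named regions are the 10 longest domains of each line, the 10 longest in one line alone, the 10 largest surpluses in each direction, and the 11 H69M domains without an H69 peak, a set added after values were seen. Counts at list genes were planned only for an annotation of hg19. They rest instead on gene positions from general knowledge, rounded to 10 kb and checked against the RefSeq table for GRCh38.p14 by chromosome, order and length (within 20 kb for 155 of 163 genes), and genes outside the lists were placed after the values were seen. No coordinates were converted between builds. Alternatives varied the gap, the minimum, the score, the number of peaks or domains, the overlap and the gene margin. Values of some single genes and regions are not reported here.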

Additional observations from a re-analysis of the deposited data

How the results depend on the processing

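The number of domains followed the rule, while H69M had more under every setting run. With a gap of 5000 bp there were 250 domains in H69M and 135 in H69, with a gap of 25000 bp 863 and 424, with a minimum of 10000 bp 1184 and 575, and with a minimum of 20000 bp 285 and 142, H69M first in each pair. With peaks of score 100 or more there were 422 in H69M and 178 in H69, and with equal numbers of peaks 428 in H69M and 267 in H69.

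The share of H69M domains that overlap an H69 domain moved to 31.8% with scores of 100 or more, 43.9% with equal numbers of peaks and 55.1% with equal numbers of domains. The share of H69 domains moved to 84.4% with a gap of 25000 bp, 80.2% with a minimum of 10000 bp and 54.3% with equal numbers of domains. With equal numbers of domains the shares of the lines were therefore close, and the gap between 37.4% and 73.03% goes with the larger number of domains in H69M. When any peak of the other line counted, the shares were 97.9% in H69M and 100% in H69. Requiring 0.5 of the shorter domain gave 36.6% in H69M and 71.5% in H69, and leaving out domains near chromosome ends, chosen after seeing the data, gave 34.2% in H69M and 76.6% in H69.

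The ratio of summed H3K27ac over the merged regions was 1.27 with equal numbers of peaks and 1.52 with scores of 100 or more. With equal numbers of peaks, 17 of the 601 regions changed the line with the longer mark. H3K27me3 inside each line's own domains was 11.6 kb in H69M with equal numbers of H3K27me3 peaks. It was 5.85 kb in H69M and 3.12 kb in H69 with scores of 100 or more, and 6.53 kb in H69M and 3.06 kb in H69 when counted only under H3K27ac peaks, a setting chosen after seeing the data. The cause of these shifts was not tested. Without a margin 9 list genes lay at a domain in H69M and 4 in H69, and with a margin of 50 kb 11 in H69M and 5 in H69.

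The alternatives that leave out gene starts or assign the nearest gene start were not run, because no hg19 annotation was used here. No paired analysis was possible because each group holds 1 sample.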

Other observations

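Outside chromosomes 1 to 22 and X, on sequences not used above, H69M had 134 H3K27ac peaks and H69 had 82. The same rule gave 1 domain there in H69M, of 22.6 kb, and 0 in H69, whose longest joined region measured 5.14 kb.

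Further loci were chosen after their values were seen. IGF2, an imprinted growth factor gene, and TH, the first enzyme of catecholamine synthesis, lay at a domain called in H69 alone, chromosome 11, 2158757 to 2236962. H3K27ac covered it over 21.6 kb in H69M and 21.5 kb in H69, so the lines differed there in how the peaks were spaced and not in covered length. The longest joined region of H69M was 2.39 kb at IGF2 and 12.1 kb at TH. H3K27me3 covered 2.93 kb of this domain in H69M and 1.81 kb in H69. The HOXC cluster carried a domain in both lines, and the merged region had 28.6 kb in H69M and 23.1 kb in H69. HOXC9 lay at the domain of each line, and HOXC4 lay at the H69 domain and, in H69M, at a joined region of 7.61 kb. IER3, an early response gene of cell survival, and FLOT1, a protein of lipid rafts, lay at an H69M domain with 31.8 kb in H69M and 10.4 kb in H69.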
